A study of Mus musculus with 6 samples.

Results

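Wnt ligands, their Frizzled receptors and 2 families of secreted Wnt inhibitors were examined in the transcriptome of cultured neural stem cells (NSCs). The members were all genes of the table whose symbol is *Wnt*, *Fzd*, *Sfrp* or *Dkk* followed by a number (and, for *Wnt*, at times a letter), which gave 37 of 53379 genes: 19 *Wnt*, 10 *Fzd*, 4 *Sfrp* and 4 *Dkk* genes. They were chosen by symbol and not by a measured value, but with earlier results of these data known. The NSCs came from the E14.5 embryonic cortex of mice homozygous for a floxed *Tbl1xr1* allele (flox/flox), grew as neurospheres with bFGF and EGF, and were infected either with GFP, the control, or with Cre, the recombinase that removes the floxed part of the gene. All cells of both groups thus came from flox/flox embryos and were infected with a virus. The study describes a lentivirus with Cre-GFP or with GFP alone, after which GFP-positive cells were sorted. There were 3 libraries from GFP cells (replicates 1, 1_1 and 2) and 3 from Cre cells (replicates 2, 2_2 and 3). The labels do not say which embryo a culture came from or whether 1 and 1_1, or 2 and 2_2, share a culture, so p-values may measure only technical spread, and the effect of Cre and a different origin of the cultures cannot be told apart.

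Wnt proteins are secreted, lipid-modified signals that bind Frizzled receptors on the cell surface. With the co-receptors Lrp5 and Lrp6 they stabilize βCATENIN, which then activates genes together with TCF/LEF factors, and through other Frizzled partners they orient cells in the plane of a tissue. Sfrp proteins carry a Wnt-binding domain like that of Frizzled and act outside the cell, and Dkk1, Dkk2 and Dkk4 bind Lrp5 and Lrp6. In the embryonic cortex, Wnt signals sustain the division of progenitors early and promote neuron formation later.

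Expression is given as the normalized count, the read count of a gene divided by 1 size factor per library. The libraries held from 7510615 to 14828100 reads on genes, and no pair of libraries within a group agreed within counting error, with a chi-square per degree of freedom from 6.37 to 39.99. *Tbl1xr1* had 2522, 2190 and 2721 normalized counts in GFP replicates 1, 1_1 and 2, and 3774, 3463 and 2905 in Cre replicates 2, 2_2 and 3. Its mRNA was therefore not lower in the libraries labelled Cre (log2 fold change 0.45 with a standard error, SE, of 0.14 and an adjusted p of 0.0600 by limma, and 0.0216 with edgeR and no filter), although counts over the whole gene do not measure the floxed part alone, and directions below refer to the libraries labelled Cre. For NSCs made in this way the study reported loss of *Tbl1xr1* mRNA by RT-qPCR and of its protein by Western blot. The whole-gene counts do not test that report. All 11 NSC markers had a mean of at least 10, from a list that includes *Sox2*, *Nes*, *Pax6* and *Sox9*. Among them *Nes* fell (log2 fold change -0.85, limma adjusted p = 0.00384) and *Sox9* rose (1.01, limma adjusted p = 0.00175). The other 9 did not pass the limma test described below. Of the 11 log2 fold changes, 7 were positive and 4 negative. Of the 7 telencephalon and cortex markers, *Emx1*, *Eomes* and *Neurog2* had a mean under 10 over the 6 libraries. *Eomes* had 0, 1.46 and 0 normalized counts in GFP and 9.003, 10.3 and 12.5 in the libraries labelled Cre, and *Neurog2*, at 0 in GFP, had 4.85, 19.8 and 19.7, so both were apart between the groups.

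Of the 37 members, 18 had a mean normalized count of at least 10 over the 6 libraries: *Wnt3*, *Wnt4*, *Wnt5a*, *Wnt5b*, *Wnt7a*, *Wnt7b*, *Fzd1* to *Fzd5*, *Fzd7* to *Fzd10*, *Sfrp1*, *Sfrp2* and *Sfrp4*. Another 8 had reads but a lower mean, and 11 had no read in any library. *Sfrp1* passed this level through the libraries labelled Cre alone (mean 7.19 in GFP), and *Sfrp4* and *Fzd1* through the GFP libraries alone (means of 9.10 and 9.98 in the libraries labelled Cre), while the other 15 passed it in both groups.

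The start regions of the receptor genes that differed between the groups are shown before their values. The RefSeq table of promoters on GRCm38.p6, with windows from 250 bases before to 50 bases after a gene's start, held 28 windows of 25 members. Among them were those of *Fzd9*, *Fzd10* and *Fzd5*, 3 of the 4 members that passed the test described below; *Sfrp1* was not among them. The 250 bases before each start follow 5′ to 3′ on the strand of the gene, with every CG dinucleotide in capitals. *Fzd9* is on the minus strand at chr5:135251048-135251297, *Fzd10* on the plus strand at chr5:128600856-128601105 and *Fzd5* on the minus strand at chr1:64737751-64738000.
Fzd9: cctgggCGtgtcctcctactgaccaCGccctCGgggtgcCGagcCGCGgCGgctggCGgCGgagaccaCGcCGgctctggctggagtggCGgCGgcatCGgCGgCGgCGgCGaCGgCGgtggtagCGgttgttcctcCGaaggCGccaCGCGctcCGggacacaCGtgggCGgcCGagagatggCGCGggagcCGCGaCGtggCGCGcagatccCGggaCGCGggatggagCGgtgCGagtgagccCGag
Fzd10: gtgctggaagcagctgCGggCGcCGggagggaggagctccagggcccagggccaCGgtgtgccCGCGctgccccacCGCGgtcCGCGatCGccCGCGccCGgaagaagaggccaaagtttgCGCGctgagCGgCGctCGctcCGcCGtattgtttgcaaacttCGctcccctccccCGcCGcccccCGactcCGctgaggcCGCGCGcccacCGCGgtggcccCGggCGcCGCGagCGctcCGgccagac
Fzd5: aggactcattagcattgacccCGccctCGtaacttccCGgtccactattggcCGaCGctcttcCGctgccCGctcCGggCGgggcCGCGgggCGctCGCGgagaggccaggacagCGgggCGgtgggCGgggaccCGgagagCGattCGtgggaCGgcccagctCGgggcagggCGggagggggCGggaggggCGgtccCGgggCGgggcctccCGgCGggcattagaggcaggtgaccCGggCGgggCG
*Fzd9*, which was higher in the libraries labelled Cre, and *Fzd10* and *Fzd5*, which were lower, shared this composition: their windows held 53, 45 and 38 CG dinucleotides, against a median of 7 over all 32851 windows of the table and of 32 over the 13 windows of members with a mean of at least 10. G and C made up 78.0%, 77.7% and 75.7% of the bases, against a median of 52.7% over all windows and 72.7% over those 13. Of 4 motifs searched on both strands, CTTTGAT and CTTTGAA of TCF/LEF factors and TTTGGCGC and TTTCGCGC of E2F factors, none occurred in these 3 windows. These motifs occur in 3.73%, 5.14%, 0.514% and 0.323% of all windows. Among the windows of members, CTTTGAT was found for *Wnt5b* and *Wnt11*, CTTTGAA for *Dkk1* and TTTCGCGC for *Wnt11*. *Wnt5b* was the only one of these 3 genes with a mean of at least 10.

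The levels of the classes were compared per kb of merged exon, so that long and short transcripts can be set side by side. *Wnt7b*, which signals through βCATENIN in several tissues, had the highest level of the ligands in every library, with 544, 519 and 511 normalized counts per kb in GFP replicates 1, 1_1 and 2 and 373, 469 and 524 in Cre replicates 2, 2_2 and 3. It made up 62.8% ± 1.67 (SD, n = 3) of the summed *Wnt* level per kb in GFP, and for the libraries labelled Cre the share was 60.9% ± 5.57 (SD, n = 3). *Wnt5a*, a ligand best known for signals that do not pass through βCATENIN, followed with 22.5% ± 2.36 in GFP and 26.3% ± 4.38 (SD, n = 3 each), and *Wnt7a* with 11.8% ± 2.32 and 8.64% ± 2.24 (SD, n = 3 each). The libraries of each of these 3 genes lay apart from those of the next gene in order, in both groups. *Wnt3*, *Wnt5b* and *Wnt4* came after them, with means between 3.86 and 17.6 per kb. In GFP these 3 were also apart, whereas in the libraries labelled Cre *Wnt5b* overlapped both *Wnt3* and *Wnt4*.

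*Fzd9* and *Fzd3* were the most abundant receptor transcripts. *Fzd9* stood at 678, 660 and 765 per kb in the GFP libraries and at 935, 1118 and 1319 in the libraries labelled Cre. For *Fzd3*, which acts with Celsr and Vangl proteins in axon growth and planar polarity, the levels per kb were 485, 480 and 419 in GFP and 508, 705 and 628 in the libraries labelled Cre. *Fzd9* was above *Fzd3* in both groups without overlap. Next in both groups was *Fzd10*, with 148, 128 and 139 per kb in GFP and 106, 57.5 and 52.9 in the libraries labelled Cre. In GFP it lay above *Fzd2* (86.3 ± 9.07 per kb, SD, n = 3) without overlap, but in the libraries labelled Cre it overlapped *Fzd2* (70.2 ± 13.9 per kb, SD, n = 3). *Fzd4*, *Fzd5*, *Fzd7*, *Fzd8* and *Fzd1* had means between 2.28 and 29.0 per kb in the groups. *Fzd4*, the receptor that also binds Norrin, overlapped *Fzd5* and *Fzd7* in GFP.

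The make-up of the *Fzd* class per kb differed between the groups. *Fzd9* made up 45.8%, 45.5% and 50.8% of it in the GFP libraries and 54.8%, 55.5% and 61.4% in the libraries labelled Cre, without overlap. The share of *Fzd10* was 9.98%, 8.80% and 9.21% in GFP and 6.23%, 2.85% and 2.46% in the libraries labelled Cre, also without overlap. *Fzd3* held 31.2% ± 2.94 and 31.3% ± 3.18 (SD, n = 3 each). The summed *Fzd* level was 1480 ± 27.0 per kb in GFP and 1956 ± 227 in the libraries labelled Cre (SD, n = 3 each), a ratio of 1.32, with every library labelled Cre above every GFP library. Most of this sum was *Fzd9* and *Fzd3*, and 6 of the 9 *Fzd* genes tested below had a negative log2 fold change. Summed *Wnt* levels overlapped between the groups, with 835 ± 14.3 and 745 ± 71.0 per kb (SD, n = 3 each). These sums and shares are descriptions with no test.

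**Figure D1:**
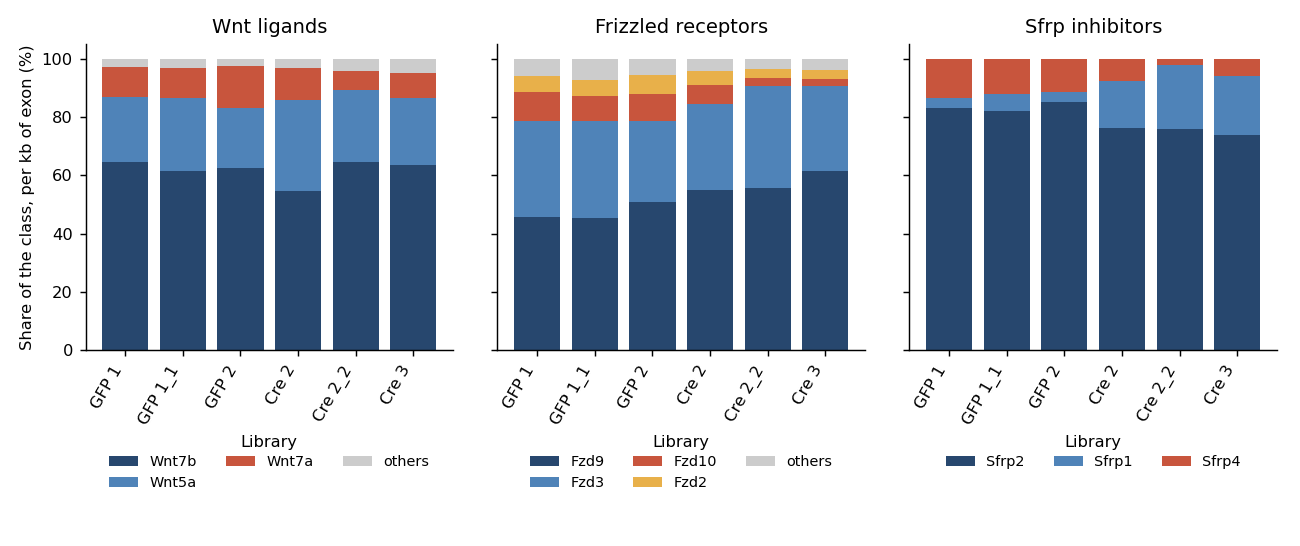
Share of each gene in the summed level per kb of exon of its class (y axis, percent) in each of the 6 libraries (x axis), for Wnt ligands, Frizzled receptors and Sfrp inhibitors; each bar is 1 library and sums to the whole class, and grey stands for all other genes of the class. The share of *Fzd9* is higher, and that of *Fzd10* lower, in the 3 libraries labelled Cre, and the share of *Sfrp1* is between 16.1% and 22.1% there against 3.23% to 5.66% in GFP.

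Differential expression was tested with limma on log2(normalized count + 1) over the 14840 genes with a mean of at least 10, with Benjamini-Hochberg adjustment and a threshold of 0.05. All fold changes refer to that transformed scale, on which the added 1 draws low counts closer together. Over all of these genes 9.96% passed, 4.74% as higher and 5.22% as lower in the libraries labelled Cre. Of the 18 members tested, 4 passed, with *Sfrp1* and *Fzd9* higher and *Fzd10* and *Fzd5* lower. None of the 6 *Wnt* ligands passed with limma, and 1 of them, *Wnt7a*, had an unadjusted p under 0.05. With edgeR or DESeq2 on the recovered reads of the same genes none passed, but *Wnt7a* did with edgeR and no filter, an alternative added after the data were seen (adjusted p = 0.0188). The median log2 fold change was -0.18 over the 18 members and -0.001 over all genes tested, and the median absolute change was 0.43 and 0.26. The members tested include the 3 that were above the filter in 1 group alone, and these counts describe the members and were not tested against other genes. In bulk RNA, fewer cells that express a gene and less of its RNA per cell cannot be told apart.

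**Figure D2:**
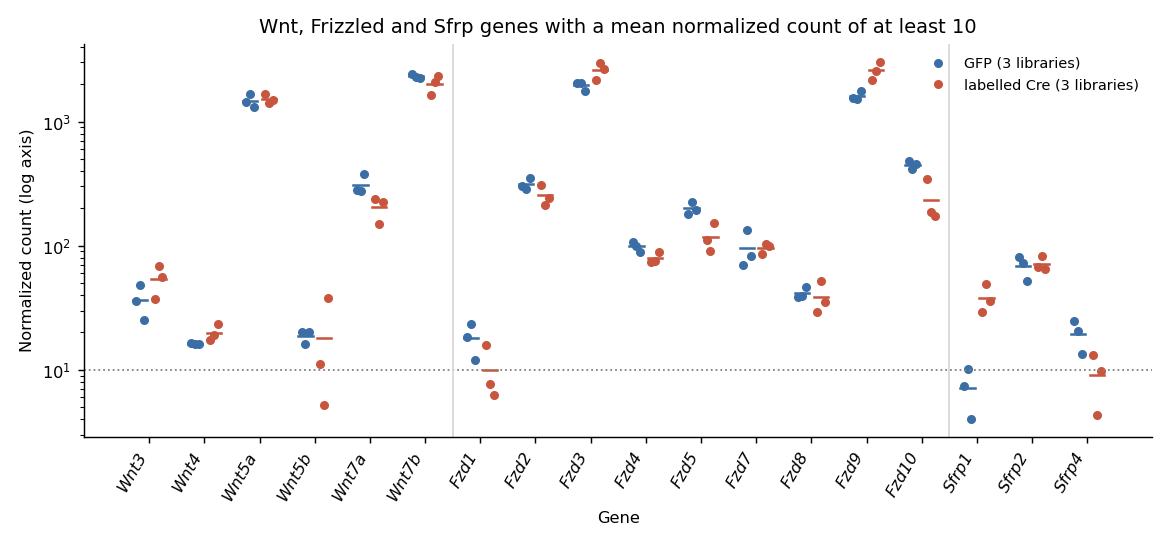
Normalized count (y axis, log scale) of each of the 18 members with a mean of at least 10 (x axis), with 1 point per library, 3 GFP and 3 labelled Cre; short lines are the means and the dotted line marks 10. *Wnt7b*, *Wnt5a*, *Fzd3* and *Fzd9* lie highest in every library, and *Sfrp1* lies at or below 10.2 in GFP and between 29.1 and 49.1 in the libraries labelled Cre.

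*Sfrp1* (ENSMUSG00000031548), a secreted Wnt antagonist, had the largest difference of the members tested. Its normalized count was 7.34, 10.2 and 4.00 in GFP replicates 1, 1_1 and 2, from 8, 7 and 3 reads. In Cre replicates 2, 2_2 and 3 it was 29.1, 49.1 and 35.8, from 42, 57 and 40 reads. All libraries labelled Cre were thus above all GFP libraries, with few reads in GFP. The log2 fold change was 2.30 (95% interval 1.36 to 3.23, SE 0.43, limma adjusted p = 0.00708), and the means of 7.19 and 38.0 differed 5.28-fold. It passed under all 17 alternatives that tested it, with an adjusted p from 2.1e-05 to 0.046. These refit the same libraries, and the stricter filter on the mean left *Sfrp1* out. The filter of the main test was met through the libraries labelled Cre alone. With no filter the limma adjusted p was 0.00874. *Sfrp1* lies on chromosome 8 of GRCm38.p6 from 23411383 to 23449632.

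*Sfrp2*, another member of the family, was the most abundant *Sfrp* transcript per kb in both groups. Its normalized count was 81.7, 73.1 and 52.0 in GFP and 67.9, 82.6 and 64.5 in the libraries labelled Cre. These ranges overlapped, and the log2 fold change was 0.07 (95% interval -0.46 to 0.60, limma adjusted p = 0.885). *Sfrp4* had 24.8, 20.48 and 13.3 in GFP and 13.2, 4.30 and 9.85 in the libraries labelled Cre. GFP replicate 2 and Cre replicate 2 were almost level, and with a log2 fold change of -1.09 (95% interval -2.16 to -0.03) the adjusted p was 0.185. The share of *Sfrp2* in the *Sfrp* level per kb was 83.4% ± 1.58 in GFP and 75.2% ± 1.23 in the libraries labelled Cre (SD, n = 3 each). *Sfrp1* and *Sfrp4* exchanged second place, with *Sfrp1* at 4.19% ± 1.30 and 19.5% ± 3.11, and *Sfrp4* at 12.4% ± 0.90 and 5.31% ± 2.93 (SD, n = 3 each). The summed *Sfrp* level per kb overlapped between the groups, with 38.5 ± 9.03 in GFP and 44.2 ± 5.60 in the libraries labelled Cre.

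*Fzd9* (ENSMUSG00000049551), the receptor transcript with the highest level per kb, rose. The GFP libraries had 1555, 1514 and 1755 normalized counts, and the libraries labelled Cre had 2144, 2565 and 3025. Each library labelled Cre was above each GFP library. The log2 fold change was 0.67 (95% interval 0.36 to 0.98, SE 0.14, limma adjusted p = 0.0130), a 1.59-fold difference. It passed in 14 of 18 alternatives, and did not pass without GFP replicate 1 (adjusted p = 0.0735), GFP replicate 1_1 (0.0653) or Cre replicate 2_2 (0.0586), nor with GFP replicates 1 and 1_1 averaged (0.0665). The gene consists of 1 exon and lies on chromosome 5 of GRCm38.p6 from 135248938 to 135251047.

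*Fzd10* (ENSMUSG00000081683), also a gene of 1 exon on chromosome 5 (from 128601106 to 128604093), fell. Its normalized count was 481, 415 and 451 in the GFP libraries. Cre replicate 2 had 346, and Cre replicates 2_2 and 3 had 187 and 172, so that all 3 were below GFP but Cre replicate 2 stood apart from the other two. The log2 fold change was -1.003 (95% interval -1.51 to -0.49, SE 0.23, limma adjusted p = 0.0205), which is 2.00-fold lower. Without Cre replicate 2 it was -1.32 with an adjusted p of 1.1e-04. The call was lost without GFP replicate 1 (0.0977), GFP replicate 1_1 (0.0631), GFP replicate 2 (0.0882) or Cre replicate 2_2 (0.101), and with GFP replicates 1 and 1_1 averaged (0.0754), and it held in the other alternatives, 13 of 18.

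A long noncoding RNA listed as 5930412G12Rik, which RefSeq names *Fzd10os*, ends 418 bases before the start of *Fzd10* (chromosome 5, from 128579130 to 128600687). It was chosen for its position after its values were seen. It had 180, 195 and 197 normalized counts in GFP and 120, 131 and 163 in the libraries labelled Cre. These groups did not overlap, and the log2 fold change was -0.48 (SE 0.17, limma adjusted p = 0.112, from 0.053 to 0.272 over the alternatives), so it did not pass. The annotated genes do not overlap each other.

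*Fzd5* (ENSMUSG00000045005), a receptor with a known role in the developing eye, fell as well. Its normalized count was 181, 225 and 195 in GFP and 111, 90.4 and 151 in the libraries labelled Cre, without overlap. The log2 fold change was -0.79 (95% interval -1.25 to -0.33, SE 0.21, limma adjusted p = 0.0376), or 1.73-fold lower. It passed in 11 of 18 alternatives. It did not pass without GFP replicate 1 (0.0998), GFP replicate 1_1 (0.141), GFP replicate 2 (0.117) or Cre replicate 2_2 (0.136), nor with GFP replicates 1 and 1_1 averaged (0.107), Cre replicates 2 and 2_2 averaged (0.0630) or both pairs averaged (0.121). The gene lies on chromosome 1 from 64730558 to 64737750.

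The groups did not overlap for 8 of the 18 members, 4 with the libraries labelled Cre above and 4 below. Over all genes tested the groups did not overlap for 30.3%, with 14.7% above and 15.5% below. Besides the 4 that passed and *Sfrp4*, these were *Fzd3*, *Wnt4* and *Wnt7a*. *Fzd3* had 2052, 2029 and 1771 normalized counts in GFP and 2146, 2980 and 2657 in the libraries labelled Cre, where Cre replicate 2 was close to the GFP libraries. The log2 fold change was 0.40 (95% interval 0.10 to 0.71, limma adjusted p = 0.0953). *Wnt7a*, the ligand nearest to the threshold, had 279, 278 and 375 in GFP and 238, 149 and 223 in the libraries labelled Cre. For it the log2 fold change was -0.62 (95% interval -1.07 to -0.18, limma adjusted p = 0.0783). Without Cre replicate 2, *Fzd3* and *Wnt7a* passed, with adjusted p-values of 0.0105 and 0.0241 and log2 fold changes of 0.53 and -0.75. With all 6 libraries both also passed with edgeR and no filter (0.0460 and 0.0188), and neither passed in the other alternatives, where the adjusted p reached 0.301 and 0.272. *Wnt4* had 16.5, 16.1 and 16.0 in GFP and 17.3, 18.9 and 23.3 in the libraries labelled Cre, from 11 to 26 reads per library. Its groups did not overlap because the 3 GFP values were close, and the log2 fold change was 0.27 (95% interval -0.49 to 1.03, limma adjusted p = 0.686).

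The other 10 members tested had overlapping groups. *Wnt7b*, the most abundant ligand, had 2402, 2289 and 2257 normalized counts in GFP and 1648, 2070 and 2313 in the libraries labelled Cre. Cre replicate 3 lay within the GFP range, and the log2 fold change was -0.22 (95% interval -0.52 to 0.08, limma adjusted p = 0.349). *Wnt5a*, with means of 1472 ± 176 and 1522 ± 139 (SD, n = 3 each), had a log2 fold change of 0.05 (95% interval -0.23 to 0.33, limma adjusted p = 0.845), so that differences beyond this interval were not seen at this depth. *Wnt3* had a log2 fold change of 0.56 and *Wnt5b* one of -0.47, with adjusted p-values of 0.309 and 0.674. *Wnt5b* was uneven among the libraries labelled Cre, with 11.1, 5.17 and 37.6, and its log2 fold change was -0.09 with edgeR. It had 20.2, 16.1 and 20.005 in GFP. Of the receptors, *Fzd2*, *Fzd4*, *Fzd8* and *Fzd1* had log2 fold changes of -0.31, -0.31, -0.14 and -0.84, and *Fzd7* one of 0.06, with adjusted p-values from 0.290 to 0.907. The 95% interval for *Fzd1* ran from -1.88 to 0.20, which leaves a large difference possible in a gene with 7 to 23 reads per library. *Fzd4* overlaps *Tmem135* on the chromosome, which had a mean of 211 normalized counts against 89.0 for *Fzd4*; whether reads were counted by strand is not known, and reads of such pairs may have been counted for the wrong gene.

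**Figure D3:**
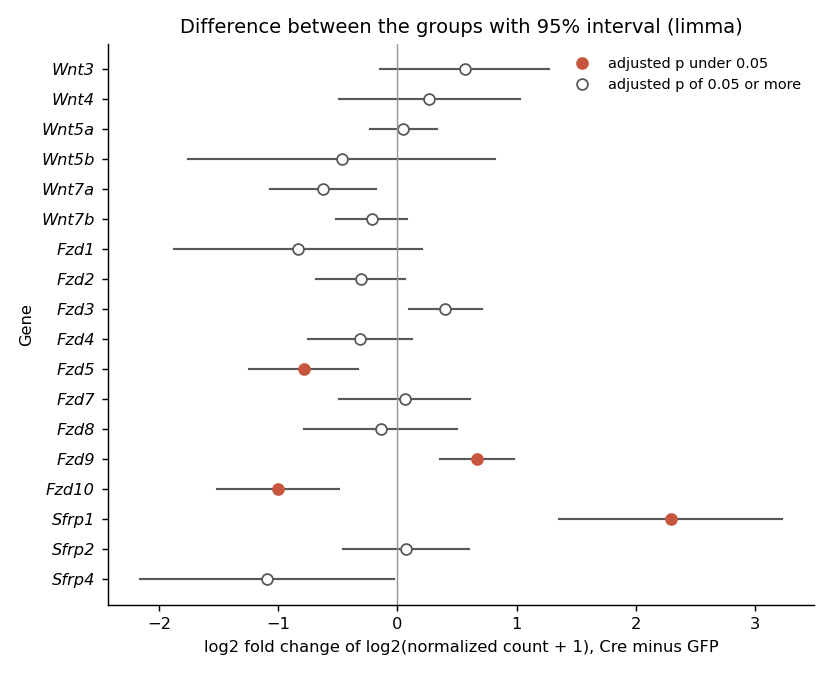
log2 fold change of each of the 18 members tested (x axis, libraries labelled Cre minus GFP, with its 95% interval from limma) by gene (y axis); filled points passed an adjusted p of 0.05. *Sfrp1* lies at 2.30 and *Fzd9* at 0.67, *Fzd10* lies at -1.003 and *Fzd5* at -0.79, and the intervals of the 6 *Wnt* ligands reach from -1.76 to 1.28.

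**Figure D4:**
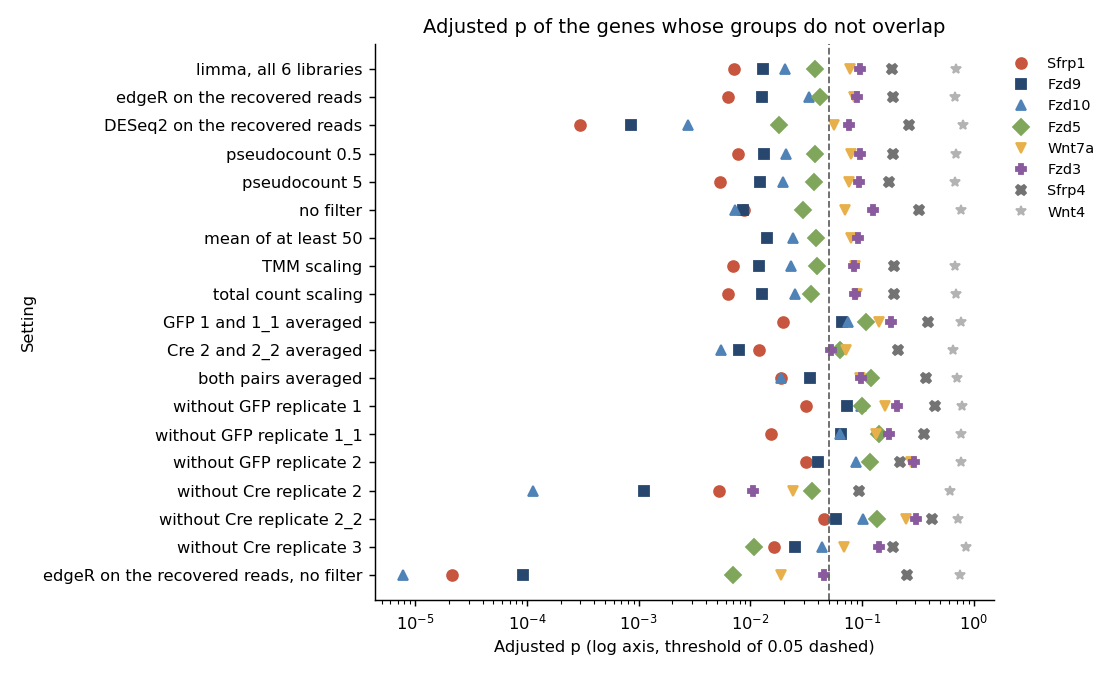
Adjusted p (x axis, log scale) of the 8 members whose groups did not overlap under each setting (y axis), the limma test of all 6 libraries first; each symbol is 1 gene and the dashed line is the threshold of 0.05. *Sfrp1* stays left of the line wherever it was tested, and *Fzd9*, *Fzd10* and *Fzd5* move across it when single libraries are left out.

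Of the members with reads below the filter, *Dkk3* and *Fzd6* had the most. *Dkk3*, a divergent Dkk protein, was the only *Dkk* gene with a read, and its mean of 9.93 lay just under 10. It had 18, 17 and 7 reads in GFP replicates 1, 1_1 and 2 (16.5, 24.9 and 9.34 normalized counts), and 4, 6 and 1 in Cre replicates 2, 2_2 and 3 (2.77, 5.17 and 0.895). Every library labelled Cre was below every GFP library. Scaled for depth, the summed reads were 5.63 times as high in GFP (95% interval from counting error alone 2.85 to 12.1). With no filter limma gave *Dkk3* a log2 fold change of -2.24 and an adjusted p of 0.0568, where 5.23% of 27585 genes passed. With edgeR and no filter the adjusted p was 0.00988, where 7.86% passed.

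*Fzd6*, a receptor known for planar polarity in skin and hair, had 3, 2 and 0 reads in GFP and 31, 13 and 10 reads in the libraries labelled Cre. The GFP libraries were at or under 3 reads and below all libraries labelled Cre. The ratio of the summed reads scaled for depth was 7.32 (95% interval from counting error alone 2.95 to 23.5). With no filter, the adjusted p was 0.0464 with limma and 0.00845 with edgeR. The annotated lncRNA Gm26704 overlaps *Fzd6* and had at most 2.08 normalized counts in a library.

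The other members under the filter had few reads. *Wnt2b* had 15 reads in all and *Wnt9a* 12, spread over both groups. *Wnt8b* had no read in GFP and 1, 5 and 0 in Cre replicates 2, 2_2 and 3. *Wnt8a*, *Wnt9b* and *Wnt16* had 1 read each. No read was counted for *Wnt1*, *Wnt2*, *Wnt3a*, *Wnt6*, *Wnt10a*, *Wnt10b*, *Wnt11*, *Sfrp5*, *Dkk1*, *Dkk2* or *Dkk4*. For these 11 genes a count of 0 allows up to 3 reads per library, or 2.08 to 4.39 normalized counts, for counting error only. They include *Wnt1* and *Wnt3a*, ligands of the midbrain and of the cortical hem, and 3 of the 4 Dkk genes.

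The rest of the pathway was taken from 6 lists chosen from general knowledge, with earlier results of these data known. The lists held 93 genes in all, of which 90 were in the table and 69 had a mean of at least 10. Of these 69, 9 passed, 7 as higher and 2 as lower, which is 13.0% against 9.96% of all genes. The 9 include *Daam2*, which was above the filter through the libraries labelled Cre alone. The 69 include *Tbl1xr1* itself and its relative *Tbl1x*, which did not pass (limma adjusted p = 0.0600 and 0.0847). Among genes for Wnt processing, secretion and removal, 1 of 5 passed. This was *Wls*, the carrier that brings Wnt proteins to the cell surface, with 1218, 1290 and 1175 normalized counts in GFP and 1733, 2095 and 1961 in the libraries labelled Cre. It did not overlap between the groups, with a limma log2 fold change of 0.65 (SE 0.12) and an adjusted p of 0.00635. *Porcn*, which adds the lipid to Wnt proteins, had a log2 fold change of -0.09 (adjusted p = 0.881). None of the 6 other secreted modulators and none of the 14 co-receptors and other receptors passed with limma. At an unadjusted p under 0.05 there were 2 in each of these lists. Of the main co-receptors, *Lrp6* and *Lrp5* had log2 fold changes of 0.40 and 0.03, with adjusted p-values of 0.0952 and 0.953.

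Of the 9 planar polarity partners of Frizzled, 3 rose and 1 fell. Over all genes tested, 4.74% passed as higher and 5.22% as lower. *Celsr2*, a large cadherin, had 326, 339 and 343 normalized counts in GFP and 153, 152 and 184 in the libraries labelled Cre (log2 fold change -1.04, limma adjusted p = 0.00182). Its relative *Celsr1* went the other way, from 50.5, 33.6 and 37.3 to 86.6, 99.0 and 86.0 (log2 fold change 1.16, adjusted p = 0.0121). *Vangl2*, a membrane protein at the opposite side of the cell from Frizzled, had 1023, 960 and 1047 in GFP and 1443, 1594 and 1528 in the libraries labelled Cre (log2 fold change 0.59, adjusted p = 0.00764). *Daam2*, a formin that links Dishevelled to actin, had 11.01, 7.31 and 5.33 in GFP and 18.0, 36.2 and 24.2 in the libraries labelled Cre (log2 fold change 1.60, adjusted p = 0.0425). The mean of *Daam2* was 7.89 in GFP and 26.1 in the libraries labelled Cre. It thus met the filter on the mean through the latter alone. None of these 4 genes, all past the threshold, overlapped between the groups, and over all genes tested 30.3% did not overlap. Among the 20 genes of the cytoplasmic relay, *Axin2*, a scaffold of the destruction complex and itself a target of the pathway, passed alone, with 404, 393 and 288 in GFP and 267, 208 and 221 in the libraries labelled Cre.

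Of the 15 nuclear factors, 3 passed, all higher, where 4.74% of all genes tested passed as higher. *Tcf7l1*, a TCF factor known mainly as a repressor, had 337, 307 and 347 normalized counts in GFP and 609, 692 and 581 in the libraries labelled Cre (log2 fold change 0.92, limma adjusted p = 0.0018). The βCATENIN coactivators *Pygo1* and *Bcl9l* had log2 fold changes of 0.69 and 0.52 (adjusted p = 0.0310 and 0.0488). *Pygo1* had 399, 372 and 473 in GFP and 511, 778 and 737 in the libraries labelled Cre, and *Bcl9l* had 704, 767 and 731 against 929, 949 and 1308. *Wls*, *Celsr2*, *Vangl2* and *Tcf7l1* passed under all 18 alternatives. *Celsr1* did not pass without GFP replicate 1_1, GFP replicate 2 or Cre replicate 2_2 (adjusted p up to 0.0577). *Axin2* was lost without GFP replicate 1, GFP replicate 1_1, Cre replicate 2_2 or Cre replicate 3 (up to 0.196). *Daam2*, *Pygo1* and *Bcl9l* passed without Cre replicate 2 but in none of the other fits with 1 library left out (up to 0.163, 0.136 and 0.181). With GFP replicates 1 and 1_1 averaged, *Axin2*, *Daam2*, *Pygo1* and *Bcl9l* did not pass (adjusted p = 0.164, 0.0844, 0.119 and 0.135), and *Daam2* did not pass with no filter either (0.0830). With both pairs averaged, *Axin2*, *Daam2* and *Bcl9l* did not pass (limma adjusted p = 0.134, 0.0704 and 0.0785), whereas *Pygo1* did (0.0414). *Daam2* was also lost with Cre replicates 2 and 2_2 averaged (0.0518).

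**Figure D5:**
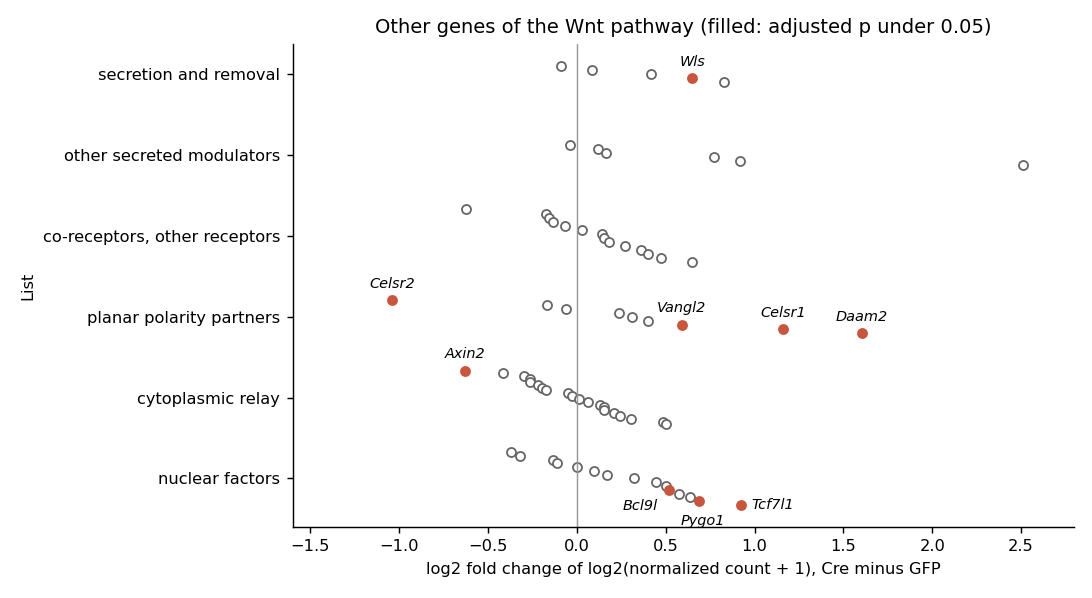
log2 fold change (x axis, libraries labelled Cre minus GFP) of the 69 tested genes of the pathway that are not Wnt, Frizzled, Sfrp or Dkk genes, by list (y axis); each point is 1 gene, spread vertically in order of its value, and filled points with names passed an adjusted p of 0.05. The named genes are 7 to the right of 0 and 2, *Celsr2* and *Axin2*, to the left.

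Markers of other cells also lay apart between the groups, and within a list single genes set the sum or went against it. The summed normalized count of the 8 midbrain and hindbrain markers was 317 to 365 in GFP and 16.6 to 18.1 in the libraries labelled Cre, and *En2* alone made up most of the GFP sum, with means of 322 and 0.231. *Gbx2*, the other one with a mean of at least 10, had a log2 fold change of -0.47 (limma adjusted p = 0.535), and *Pax2* was at 0. The 6 ventral telencephalon markers summed to 1103 to 1147 and 684 to 933, with *Dlx1* lower (means of 255 and 7.32) and *Lhx6* at 0. The 9 astrocyte markers summed to 6897 to 8067 and 12942 to 16505, and 4 of 7 tested rose, among them *Sox9*, which is also on the NSC list. *Aldh1l1* of the astrocyte list was lower in each library labelled Cre (means of 17.3 and 5.35, adjusted p = 0.0650), and *Gfap* was under 10. For the 8 oligodendrocyte lineage markers the sums were 12488 to 14404 and 17236 to 19639. Of the 6 tested, 3 passed as higher, and *Mog* and *Sox10* were under 10. Over all genes tested, 4.74% passed as higher. The 10 neuron markers summed to 17702 to 18794 and 15273 to 17250, mostly from *Map2* and *Gap43*. *Gap43* fell (means of 8711 and 5196), *Elavl4* rose (means of 96.6 and 479), *Map2* was higher in each library labelled Cre without passing (means of 9210 and 10541, adjusted p = 0.337), and *Stmn2* was at 0. Summed levels of the cortical hem and choroid plexus list were 579 to 651 and 372 to 522, nearly all *Otx2*, with *Lmx1a* and *Ttr* at 0. Those of endothelium were 28.0 to 41.3 and 14.3 to 22.2, with means of 24.5 and 8.74 for *Kdr* (adjusted p = 0.0677) and with *Cdh5* and *Cldn5* at 0. Sums overlapped for microglia, mostly from *Csf1r* (means of 183 and 222, limma adjusted p = 0.483), with *C1qa* and *C1qb* at 0. They also overlapped for meninges and fibroblasts, mostly from *Foxc1* (means of 299 and 226, limma adjusted p = 0.196), with *Col1a2*, *Pdgfrb* and *Twist1* at 0. The part of these differences in those of the Wnt, Frizzled and Sfrp genes was not tested. Depth also differed, with 7510615 to 11161497 reads in GFP and 11893230 to 14828100 in the libraries labelled Cre. Scaling to the total count or by TMM left the same 4 members past the threshold. These scalings only exchange the factor of each library, with median log2 fold changes of 0.0053 and 0.0066 over all genes. They cannot test depth, and its part in the differences was not tested.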

How the data were processed

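RNA-seq values of 6 libraries were used, grouped by the labels into 3 GFP and 3 Cre. The signal the authors deposited per gene and library is the DESeq2 normalized count. The methods name TopHat with mm9 and mm10, the submitters' processing notes STAR 2.7 and mm10; the read counter, strand setting and annotation are not given in the sources used here. The authors' own fold changes and p-values, also in the table, were not used.

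With the value of 1 read found for each library, 100% of the values were whole reads within 0.01 (largest gap 6.9e-05), 7510615 to 14828100 per library. Of 53379 genes, 873 have no name and 1 lacks a value and was left out. No per-sample column was left unused. Tests used limma 3.58.1 (lmFit, eBayes with trend) in R 4.3.3 on log2(normalized count + 1), for genes with a mean of at least 10, with Benjamini-Hochberg adjustment at 0.05. An exact permutation test of 3 against 3 cannot give p below 0.1. Alternatives were 2 count tests run with the recovered reads (edgeR 4.0.16 and DESeq2 1.42.0), a pseudocount of 0.5 or 5, no filter, a mean of at least 50, TMM, total count scaling, averaging 1 with 1_1, 2 with 2_2 or both, leaving out each library and, added after the data were seen, edgeR with no filter. Tested on simulated data (14840 genes, 200 of them set to a 2-fold difference), limma found 82.0% of those, edgeR 83.0% and DESeq2 74.0%. The simulated libraries were independent and had the same dispersion in every gene. They did not copy the spread between the real libraries or a shared culture, so these shares do not say what part of the real differences was found.

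The members, lists and tests were chosen with earlier results of these data known. Members with a mean of at least 10 are given by library where they passed, did not overlap between groups or were the highest of their class, the others by range or reads; pathway genes past the threshold are named. Exon lengths came from GENCODE M1 (mm9) and positions and promoters from RefSeq (GRCm38.p6), used for no value but lengths and neighbours. Python 3.11.15, scipy 1.17.1 and matplotlib 3.10.9 were used. Intervals and floors cover counting error only where so named.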

Additional observations from a re-analysis of the deposited data

How the results depend on the processing

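Of the 18 members tested, 4 passed the threshold with limma. The count was the same with edgeR, DESeq2, other pseudocounts, other scalings and limma with no filter, was 6 with edgeR and no filter, where *Fzd3* and *Wnt7a* passed as well, was 3 among the 11 members with a mean of at least 50, and was 1 with GFP replicates 1 and 1_1 averaged. With Cre replicates 2 and 2_2 averaged, or with both pairs averaged, the count was 3. It ran from 1 to 6 with 1 library left out: it was 1 without GFP replicate 1, GFP replicate 1_1 or Cre replicate 2_2, 2 without GFP replicate 2 and 6 without Cre replicate 2. The count of other pathway genes, 9, became 14 with DESeq2, 15 with edgeR and no filter, 5 with GFP replicates 1 and 1_1 averaged, and 6 with both pairs averaged. The 15 with edgeR and no filter include *Tbl1xr1* itself. The count ran from 4 to 15 with 1 library left out. For the averaged and left-out fits, fewer libraries were fitted; which feature of the libraries sets the difference was not tested. Where a group keeps fewer libraries, the spread is pooled over both groups.

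Directions turned for 5 members that never passed, each when single libraries were left out. *Fzd7* ran from -0.13 (without GFP replicate 1) to 0.33 and was -0.011 without GFP replicate 2, and *Fzd8* ran from -0.37 to 0.036 (without Cre replicate 2). *Sfrp2* ran from -0.12 (without GFP replicate 2) to 0.20 and was -0.034 without Cre replicate 2_2. *Wnt5a* ran from -0.031 (without GFP replicate 2) to 0.14 and was -0.022 without Cre replicate 2, and *Wnt5b* ran from -1.19 to 0.14 (without Cre replicate 2_2). The cause was not tested. The log2 ratios of the summed levels per kb moved by less than the spread between libraries under every alternative tried. The median of all genes stayed within 0.02 of 0 on the log2 scale under every alternative but edgeR with no filter, where it was 0.044. No paired analysis was possible because the groups share only the replicate number 2. At 3 libraries a group, members with few reads, such as *Fzd1*, *Wnt4* and *Wnt5b*, have wide intervals.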

Other observations

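Secreted inhibitors outside the Sfrp and Dkk families were read from the list of other modulators, and the genes in this paragraph were chosen after their values were seen. *Wif1*, which binds Wnt proteins outside the cell, had 4.59, 0 and 8.002 normalized counts in GFP replicates 1, 1_1 and 2 and 25.6, 20.7 and 15.2 in Cre replicates 2, 2_2 and 3. All libraries labelled Cre were above GFP, where it had a mean below 10, and its log2 fold change of 2.51 (SE 0.75) had a limma adjusted p of 0.0573. *Frzb*, a relative of the Sfrp genes that is also called *Sfrp3* and falls outside the symbol rule, had 103, 51.2 and 82.7 in GFP and 142, 182 and 116 in the libraries labelled Cre. The groups did not overlap, and the log2 fold change was 0.92 (SE 0.27, adjusted p = 0.0559). Over the alternatives the adjusted p ran from 0.00505 to 0.164 for *Wif1* and from 0.00410 to 0.209 for *Frzb*. The other tested genes of the list of other modulators were *Igfbp4*, *Sostdc1*, *Ndp* and *Serpinf1*. They had log2 fold changes of 0.12, 0.16, -0.04 and 0.77, with limma adjusted p-values from 0.446 to 0.953. *Gpc4*, from the list for processing, secretion and removal, encodes a glypican that carries Wnt proteins at the cell surface. It had 51.4, 79.0 and 69.3 in GFP and 131, 133 and 92.2 in the libraries labelled Cre (log2 fold change 0.83, adjusted p = 0.0507, from 0.0109 to 0.208 over the alternatives). None of *Wif1*, *Frzb* and *Gpc4* passed in the limma test of all 6 libraries.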
